A study of Mus musculus with 288 samples.

Results

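The genes described here encode the proteins of the cytosolic ribosome. They were taken by name: every row whose symbol starts with Rpl or Rps followed by a digit, together with Rplp0, Rplp1, Rplp2 and Rpsa, without names marked -ps (a mark of pseudogenes) and without the kinases named Rps6k. The rule gave 89 of the 24781 genes in the table, 54 named for the large subunit and 35 for the small subunit. Of these, 88 had a count in the wells used, 82 had at least 50 counts there, and 7 had fewer. The names are not all subunit proteins: Rps19bp1 is a binding partner of Rps19, and GENCODE M21 annotates 3 members, Rpl32l, Rpl37rt and Rps4l, as processed pseudogenes.

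The cells came from the lungs of 4-month-old C57BL/6 mice of genotype Scgb1a1-CreER;Rosa26-mTmG. This drives a tamoxifen-dependent Cre recombinase from the promoter of Scgb1a1, the club cell secretoglobin, and adds a reporter that changes colour in cells where Cre has acted, and their descendants. Cells were sorted 1 per well as reporter-positive, Epcam-positive, CD45- and CD31-negative and low in CD24. The 286 sorted wells carry the same genotype, age and strain labels, and 2 negative control wells held medium. Neither the animal of each cell nor the timing of Cre induction is given in the labels, so the wells were treated as 1 sample with no p-value made from cells.

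A well was kept when its total exceeded 2340 counts, 10 times the higher control, which left 227 wells and removed 59. Kept wells were divided by the share of their counts taken by a secretory gene. In 63 Sftpc wells, surfactant protein C, the alveolar type 2 product, was at least 1% of counts. In 74 Scgb3a1 wells, this secretoglobin was at least 1%, and the 90 other wells passed neither limit. No well passed both. The nearest values on either side of the limit were 0.734% and 2.07% for Sftpc, and 0.876% and 1.01% for Scgb3a1. Median totals were 3529 counts in Sftpc wells, 6940.5 in Scgb3a1 wells and 5406 in other wells. Alveolar type 2 markers summed to 207224 CPM (counts scaled to 1000000) in Sftpc wells, against 5945 and 9932 in Scgb3a1 and other wells. This sum includes Sftpc itself, at 15.2% of counts in Sftpc wells, so most of the contrast follows from the class limit. Club cell markers took 59690, 306014 and 382498 CPM in the same order, and goblet markers 87.3, 11127 and 174 CPM. The club sum includes Scgb1a1, at 4.49%, 22.8% and 30.5% of counts. Endothelial markers summed to 3, 2 and 15 counts in the same order, immune markers to 1, 1 and 5, mesenchymal markers to 2, 2 and 0, and basal markers to 0, 1 and 0. Krt5, Krt14, Ptprc, Cd3e and Pecam1 were at 0 in every kept well.

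A ribosome is built from a small subunit, which reads the messenger, and a large subunit, which joins amino acids. Each ribosome takes nearly all of its proteins in single copy, so their genes are expressed at a high and balanced level in growing and secreting cells. Their messengers typically begin with a tract of pyrimidines (C and T letters), through which the growth kinase mTOR and the protein Larp1 control their translation. Translation was not measured here.

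The windows below run from 40 bases before to 30 bases after a start site, on the gene's strand, for the 11 members that were the 3 highest and 3 lowest of the 2 comparisons below. Sequences and coordinates are from RefSeq on GRCm38.p6, and capitals mark runs of 8 or more C or T letters. For Rps19 and Rpl35a, 3 starts are listed, and for Rps27l and Rpl22, 2 starts. For each of these, the start shown was picked for the longest such run in its window.
Rps19 (chr7:24884636-24884705, plus strand): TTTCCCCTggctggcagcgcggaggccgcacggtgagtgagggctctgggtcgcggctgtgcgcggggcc
Rps12 (chr10:23787180-23787249, minus strand): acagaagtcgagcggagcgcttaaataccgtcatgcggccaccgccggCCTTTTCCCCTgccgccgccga
Rps9 (chr7:3704001-3704070, plus strand): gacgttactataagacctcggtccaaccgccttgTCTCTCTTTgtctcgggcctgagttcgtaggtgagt
Rps27l (chr9:66946046-66946115, plus strand): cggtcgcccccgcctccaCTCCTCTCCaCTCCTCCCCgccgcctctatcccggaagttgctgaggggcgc
Rpl39 (chrX:37085193-37085262, minus strand): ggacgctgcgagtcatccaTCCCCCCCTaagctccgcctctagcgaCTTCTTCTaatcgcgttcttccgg
Rpl15 (chr14:18270957-18271026, minus strand): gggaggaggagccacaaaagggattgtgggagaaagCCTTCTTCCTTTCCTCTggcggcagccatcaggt
Rpl22l1 (chr3:28805468-28805537, plus strand): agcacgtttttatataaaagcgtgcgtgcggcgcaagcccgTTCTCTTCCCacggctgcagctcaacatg
Rpl35a (chr16:33056442-33056511, plus strand): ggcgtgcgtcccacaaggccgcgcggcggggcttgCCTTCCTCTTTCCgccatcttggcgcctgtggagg
Rpl22 (chr4:152325686-152325755, plus strand): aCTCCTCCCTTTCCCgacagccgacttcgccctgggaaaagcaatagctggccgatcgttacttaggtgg
Rpl36al (chr12:69184038-69184107, minus strand): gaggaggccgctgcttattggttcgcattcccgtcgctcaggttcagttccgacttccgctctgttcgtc
Rpl12 (chr2:32961672-32961741, plus strand): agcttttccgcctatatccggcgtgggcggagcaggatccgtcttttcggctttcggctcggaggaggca

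Of the 11 windows, 9 held at least 1 such run, and those of Rpl36al and Rpl12 held none. In 7 of the 9 a run covered the start or lay within 10 bases of it, whereas in Rps19 and Rpl22 the run lay at the far end of the window, ahead of the start shown. Of the 89 members, 68 matched a RefSeq promoter. Within 50 bases of any of their listed starts, 54 of the 68 (79.4%) held a run of 8 or more C or T letters on the gene's strand. By the same rule, 39.3% of 27025 genes did. The stricter form was a C followed by at least 4 C or T letters, with that C within 5 bases of any listed start. It was found in 31 of 68 members (45.6%) and 21.2% of all genes. The 2 patterns overlap, and the looser one was added after the sequences had been read. A match describes the letters and does not show a site.

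Ribosomal protein genes took 92519 of 1259118 counts in kept wells, or 7.35% (exact Poisson 95% interval 7.30 to 7.40). Without Scgb1a1, Sftpc and Rn45s, the ribosomal RNA precursor, they took 11.3%. These 3 genes dilute everything else to different degrees: Scgb1a1 alone was 4.49% of counts in Sftpc wells, 22.8% in Scgb3a1 wells and 30.5% in other wells. Values are therefore given on all counts and on counts without the 3 genes, here called the reduced scale. All intervals cover counting error only, and are too narrow if molecular barcodes were not collapsed before counting.

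The 2 controls held almost none of these counts. The first had 0 ribosomal protein counts of 41, with an exact Clopper-Pearson upper limit of 8.60%; 3 counts would be 7.32%. The second had 1 of 234, from Rps28, or 0.427% (exact Clopper-Pearson interval 0.011 to 2.36).

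On all counts, the summed share per well ran from 3.12% through a median of 8.05% to 10.9% in Sftpc wells, from 4.24% through 6.78% to 9.01% in Scgb3a1 wells, and from 2.44% through 7.57% to 15.1% in other wells. The 3 ranges overlapped throughout. Pooled shares were 7.84% (7.72 to 7.95), 6.79% (6.71 to 6.86) and 7.69% (7.61 to 7.76) in the same order. Scgb3a1 wells were thus lowest, while Sftpc wells exceeded other wells by 0.03 on the log2 scale (0.00 to 0.05).

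On the reduced scale the order changed. The medians per well became 11.6% in Sftpc wells (5.78 to 15.8), 9.83% in Scgb3a1 wells (7.10 to 13.4) and 12.8% in other wells (2.82 to 24.5). Pooled shares were 11.4%, 9.92% and 12.7%. Scgb3a1 wells remained lowest at a log2 ratio of -0.36 to other wells (-0.38 to -0.34), against -0.18 (-0.20 to -0.16) on all counts. The Sftpc ratio turned from 0.03 to -0.16 (-0.18 to -0.13), so its direction depends on the scale. Both ratios use the same other wells. The reduced scale still holds Scgb3a1, which was 5.07% of counts in Scgb3a1 wells. Without the 8 non-member genes of at least 1% of counts, the ratios were -0.17 (Scgb3a1) and -0.30 (Sftpc). Sftpc wells were then lowest, so which class is lowest also depends on the scale.

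**Figure D1:**
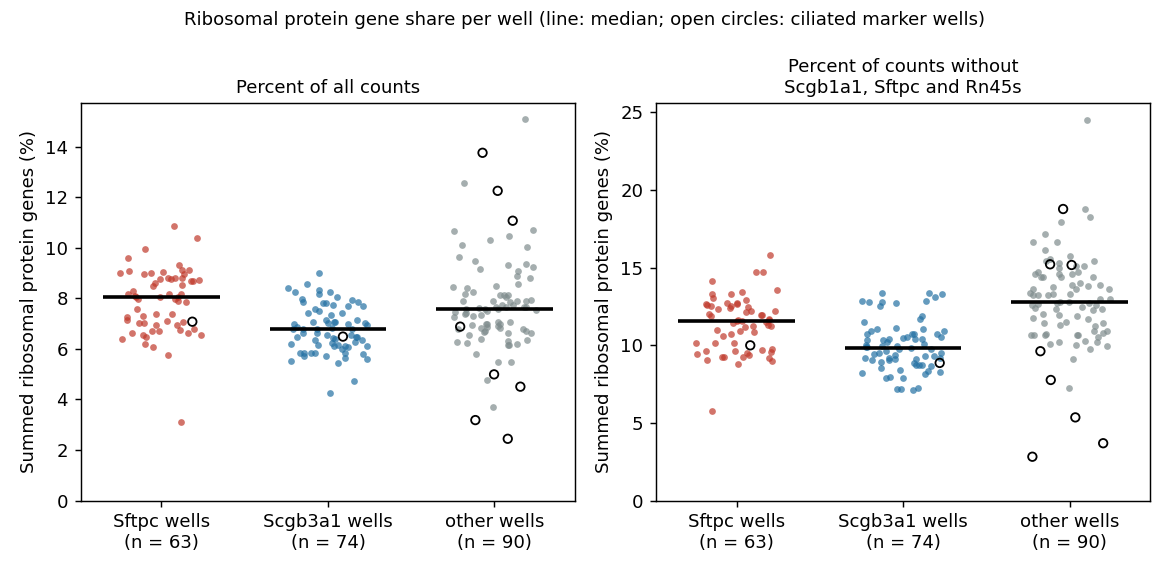
Share of counts from the summed ribosomal protein genes in each kept well (vertical axes, percent), on all counts (left) and without Scgb1a1, Sftpc and Rn45s (right), for 63 Sftpc, 74 Scgb3a1 and 90 other wells. Bars are medians and open circles are wells with at least 3 counts of ciliated markers; the Scgb3a1 median is lowest on both scales, and the Sftpc median lies above that of other wells on the left and below it on the right.

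The 288 columns were divided in their order into 3 sets of 96, over which the classes were spread unevenly: 6, 17 and 40 Sftpc wells, 38, 31 and 5 Scgb3a1 wells, and 38, 33 and 19 other wells. No label ties these sets to a plate or batch. Within the sets, reduced-scale shares were 12.0%, 11.4% and 11.3% in Sftpc wells, 9.64%, 10.1% and 10.6% in Scgb3a1 wells, and 12.6%, 12.9% and 12.7% in other wells. The order of the classes was thus the same in all 3 sets on this scale. On all counts it was not: the Sftpc log2 ratio was 0.06 and 0.07 in the first and second sets and -0.20 in the third, and without the third set the pooled value was 0.07.

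Wells with ciliated transcripts were spread more widely. Of the kept wells, 10 had at least 3 counts over Foxj1, Tppp3 and Ccdc153, and 8 of them were other wells. In those 8 the reduced-scale share ran from 2.82% through a median of 8.69% to 18.8%. Of the 5 lowest other wells 4 were among them, while 3 of the 8, at 15.2%, 15.2% and 18.8%, lay above the median of all other wells. Those 4 low wells had 6 to 24 Scgb1a1 counts, and the 3 high ones had 352 to 1360. The remaining well, at 9.62%, had 2651. On all counts their pooled share was 8.15%, against 7.64% in the remaining other wells. Their median per well on all counts was lower, at 5.94% against 7.59%, so the direction depends on pooling. Without the 8, the pooled share of other wells was 13.0%. Without all 10, the all-count ratios were -0.17 (Scgb3a1) and 0.04 (Sftpc).

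At the level of single genes, none of the 82 ribosomal protein genes tested was more than 1.5-fold higher in Sftpc wells than in other wells on all counts, and none of them was more than 1.5-fold lower. With the 6 others that had a count, 3 of 88 were past it higher and 1 lower. Of 1468 genes with at least 50 counts over both classes, 25% passed that fold upward and 16.1% downward. The 82 members tested ran from -0.54 to 0.55 in log2 ratio, with a median of 0.03, 47 above and 35 below 0. The median of all genes tested was 0.13, and their interquartile range was -0.29 to 0.59, against -0.12 to 0.13 for the members. Members have more counts than most genes. Among genes with at least 500 counts, the interquartile range was -0.11 to 0.16 for 63 members and -1.27 to 0.60 for 67 other genes. The 67 include Sftpc, which sets the class, and genes such as Scgb1a1 that reach the limit mainly through 1 class. Their spread is thus no matched measure for the members.

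On the reduced scale 5 members were past 1.5-fold lower in Sftpc wells, Rps27l, Rpl39, Rpl15, Rpl28 and Rpl10a, where 21.4% of all genes were lower. None was higher, where 19.9% of genes were. The member median was -0.16, with 67 of 82 below 0, beside -0.06 for all genes.

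In Scgb3a1 wells, none of the 82 members tested was past 1.5-fold higher on all counts, where 15.1% of 1949 genes were. Rps19 and Rpl22l1 were past it lower, where 15.3% of genes were. Here 74 of 82 members lay below 0, with a median of -0.18, an interquartile range of -0.27 to -0.08 and a full range of -1.29 to 0.22. Of all genes tested, 53.0% lay below 0, with a median of -0.04. On the reduced scale 81 of 82 members were below 0 (66.2% of all genes), and 5 were past 1.5-fold lower, Rps19, Rpl22l1, Rpl35a and Rpl5 among them, beside 22.5% of genes; none was higher (11% of genes). On this scale the member median was -0.36 and that of all genes -0.22.

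**Figure D2:**
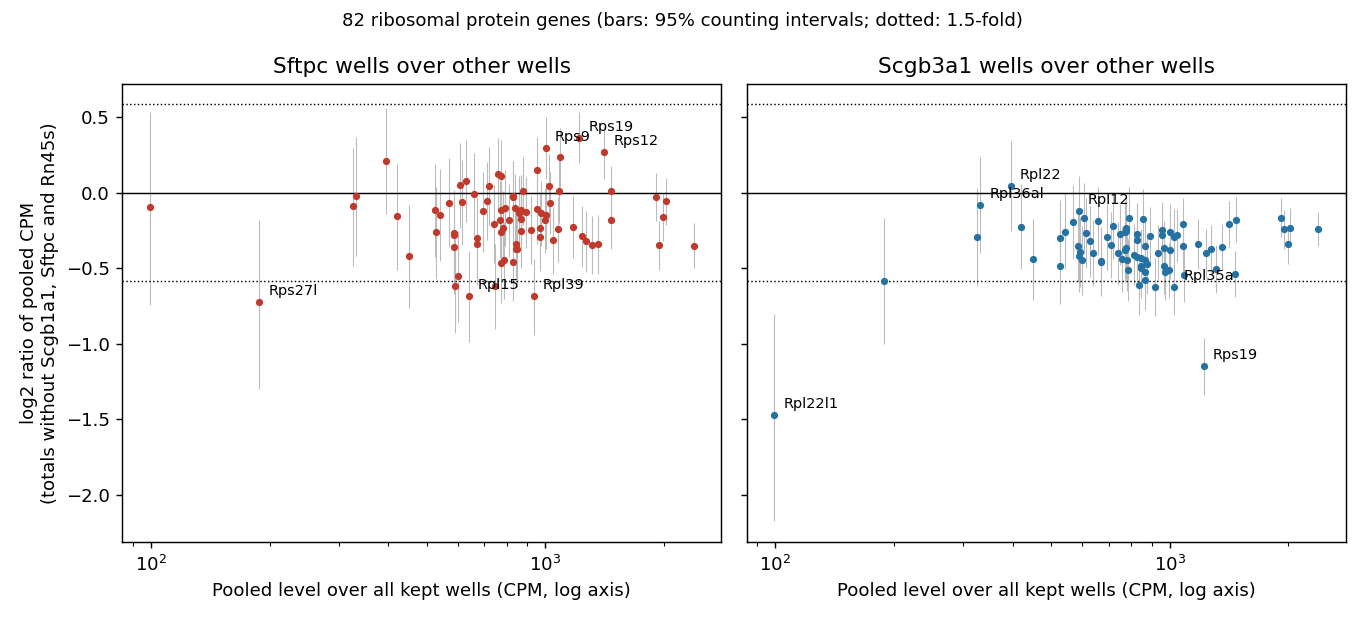
Log2 ratio of pooled CPM on the reduced scale (vertical axis) against the pooled level over kept wells on all counts (horizontal axis, log scale) for the 82 members tested, in Sftpc wells (left) and Scgb3a1 wells (right) over the same other wells. Bars are 95% counting intervals and dotted lines mark 1.5-fold; most members form a narrow band, with Rps19 (1220 CPM) apart from it on the right at -1.15.

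Rps19, a small-subunit protein needed to mature that subunit and mutated in Diamond-Blackfan anaemia, stood furthest from the other well-counted members (GENCODE M21, chr7:24884371-24889806, plus strand). On the reduced scale, its level ran from 0 through a median of 2635 to 6187 CPM in Sftpc wells, from 0 through 980 to 4009 in Scgb3a1 wells, and from 0 through 2187 to 5889 in other wells. The ranges overlapped, and most Scgb3a1 wells lay below the medians of both other classes. It made up 2.56%, 1.03% and 1.78% of all ribosomal protein counts in the 3 classes, a measure that no secretory gene enters. Pooled over 360 counts in Scgb3a1 wells and 693 in other wells, its reduced level was 0.451 of that in other wells (0.396 to 0.513), a log2 ratio of -1.15 (-1.34 to -0.96). On all counts the ratio was -0.97 (-1.16 to -0.78), and among ribosomal protein counts alone -0.79.

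Rps19 was also the highest member in the Sftpc comparison, at 0.55 on all counts (0.38 to 0.72) and 0.36 reduced, short of 1.5-fold. The Scgb3a1 ratio was -1.33 in the first set and -1.09 in the second on the reduced scale. In the third, with 5 Scgb3a1 wells, it was -0.31 with an interval of -0.89 to 0.24 that spans 0. Across the 164 wells outside the Sftpc class, the Rps19 share of ribosomal protein counts and the Scgb3a1 share of all counts had a Spearman rho of -0.50. That was the lowest of 77 members compared, the others lying between -0.19 and 0.24. It is a description over wells that share libraries and includes the difference between the 2 classes. Rps19 also had the highest dispersion between wells, where counting noise gives 1, in other wells and, narrowly, in Scgb3a1 wells. It was 1.71 and 1.53 there, against medians over members of 1.11 and 1.05, with Rplp1 at 1.52 in Scgb3a1 wells. In Sftpc wells the highest was Rpl15 at 1.64, beside 1.23 for Rps19 and a median of 1.04.

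**Figure D3:**
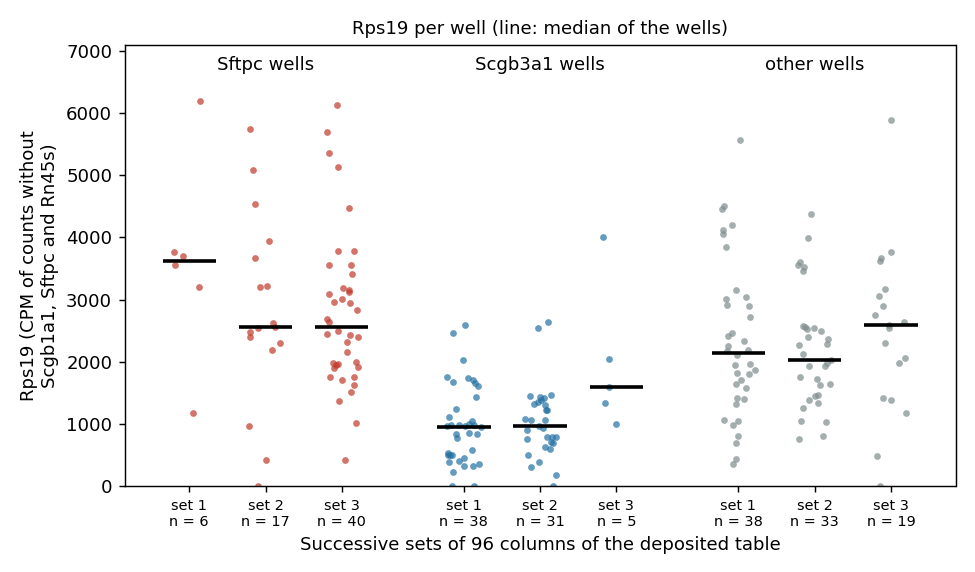
Rps19 level in each kept well (vertical axis, CPM on the reduced scale) by class and by successive set of 96 columns (horizontal axis), with medians as bars. The medians of the Scgb3a1 wells are below those of the Sftpc and other wells in each set, single wells overlap, and the third set holds 5 Scgb3a1 wells.

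Near-identical copies can exchange reads, and ribosomal protein genes have many. By the last 200 bases of their transcripts, 28 of 86 members with a GENCODE transcript had an annotated copy at 95% identity or more over at least 80% of that stretch, up to 21 copies for Rps12 and 8 for Rps19. A pseudogene of Rps19, Rps19-ps3, is its own row with 402 counts. It showed the same order of classes, with 776, 276 and 581 CPM on the reduced scale and a log2 ratio of -1.07 (-1.44 to -0.71) in Scgb3a1 wells. Adding both rows gave -0.95 on all counts. Rpl26 and Gm15772 held equal counts in 235 of 236 wells with a count of either, so their 740 and 739 counts in kept wells cannot be told apart.

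Rps12 and Rps9 followed Rps19 at the upper end of the Sftpc comparison. Rps12 ran from 813 through 2641 to 5928 CPM on the reduced scale in Sftpc wells, and from 0 through 2091 to 5958 in other wells. Its log2 ratio was 0.45 on all counts (0.28 to 0.63) and 0.27 reduced (0.09 to 0.44). Rps9, which sits where the messenger enters, was 0.48 on all counts and 0.30 reduced, but its reduced ratios by set were 0.18, -0.02 and 0.66. Neither passed 1.5-fold. The decoding and entry proteins Rps2, Rps3, Rps15 and Rps23 had none past 1.5-fold in either comparison on all counts, with medians of 0.15 (Sftpc) and -0.08 (Scgb3a1). Rps6, the target of the S6 kinases, was 0.00 in Sftpc wells and -0.23 in Scgb3a1 wells on all counts. Rpsa, also known as the laminin receptor, was 0.05 and -0.10, and Rps27a, made as a fusion with ubiquitin, 0.08 and -0.07.

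Small-subunit counts were 0.796 of large-subunit counts in Sftpc wells (0.774 to 0.819), 0.723 in Scgb3a1 wells (0.708 to 0.738) and 0.736 in other wells (0.721 to 0.751). This ratio also uses no secretory gene. The Sftpc value was the highest in each set, at 0.805, 0.814 and 0.786, beside 0.738, 0.737 and 0.731 in other wells. Per well it ran from 0.518 through 0.783 to 1.05 in Sftpc wells and from 0.436 through 0.732 to 0.962 in other wells, so single wells overlapped widely. Without Rps19 the ratios became 0.750 (0.728 to 0.773), 0.705 and 0.705 (0.691 to 0.719). Without Rps12 and Rps9 as well, members taken out after their values were seen, they were 0.677 (0.657 to 0.698), 0.650 and 0.653 (0.639 to 0.667), with overlapping intervals for Sftpc and other wells.

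Among large-subunit members, Rpl39, a short protein that lines the exit tunnel, had one of the lowest Sftpc ratios. It ran from 0 through 965 to 2610 CPM on the reduced scale in Sftpc wells and from 0 through 1793 to 4063 in other wells. The median of the Sftpc wells was lower, and the ranges overlapped. Its log2 ratio was -0.50 on all counts (-0.75 to -0.25) and -0.69 reduced (-0.94 to -0.44), with -0.69, -0.56 and -0.63 by set. Of the 8 exit tunnel and port genes (Rpl4, Rpl17, Rpl19, Rpl23a, Rpl26, Rpl31, Rpl35 and Rpl39), none passed 1.5-fold on all counts, and the median was -0.06 in Sftpc and -0.20 in Scgb3a1 wells.

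Rpl15, a core protein of the large subunit, ran from 0 through 656 to 3143 CPM in Sftpc wells and from 0 through 1225 to 2828 in other wells on the reduced scale. Its ratio was -0.50 on all counts and -0.68 reduced (-0.99 to -0.38), and by set -1.15, -1.11 and -0.28, the last with an interval of -0.76 to 0.21. Rpl28 and Rpl10a were -0.62 each on the reduced scale and -0.43 each on all counts. Rpl35a, lowest in Scgb3a1 wells after Rpl22l1 and Rps19, was -0.63 reduced (-0.81 to -0.44) and -0.44 on all counts.

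The stalk proteins Rplp0, Rplp1 and Rplp2, which recruit elongation factors, were below 0 in both comparisons, at medians of -0.16 in Sftpc and -0.10 in Scgb3a1 wells on all counts, with none past 1.5-fold. Rpl5 and Rpl11, which travel together with a small ribosomal RNA and bind Mdm2 when unassembled, differed in Sftpc wells by sign, 0.08 and -0.19, with intervals that include 0. In Scgb3a1 wells they were -0.43 and -0.25 on all counts. Rpl5 reached -0.61 (-0.81 to -0.41) on the reduced scale.

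Several members have a paralogue. Rpl22 and Rpl22l1, whose product takes the place of Rpl22 and is repressed by it in other cells, were at opposite ends in Scgb3a1 wells. Such repression was not tested here. Rpl22 was the highest of the members tested there, at 0.22 on all counts (-0.07 to 0.52), with an interval that includes 0. On the reduced scale it was 0.04. Rpl22l1 was the lowest at -1.29 (-1.99 to -0.62), from 33, 27 and 65 counts in Sftpc, Scgb3a1 and other wells. Its median per well was 0 in all 3 classes, so this ratio rests on few counts. Rps27l, a p53-induced paralogue of Rps27, had 37, 87 and 113 counts and a Sftpc ratio of -0.54 on all counts (-1.12 to 0.01), beside 0.23 for Rps27. Rpl36al and Rpl36a were 0.17 and -0.23 in Sftpc wells and 0.10 and -0.26 in Scgb3a1 wells, with intervals that include 0.

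The tissue-restricted paralogues had few or no counts. Rpl3l, a heart and muscle form, had 0 counts, Rpl39l 2 and Rpl10l 6, while Rpl3, Rpl39 and Rpl10 had 765, 1176 and 2544. Other members below the count minimum were Rpl7l1 with 45 counts, the binding partner Rps19bp1 with 17 and the annotated pseudogene Rpl32l with 40. Rps4l, also annotated as a pseudogene, had 19, of which 14 were in Scgb3a1 wells and 2 in other wells, a log2 ratio of 2.78 on all counts with a counting interval of 0.66 to 5.97.

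By pooled counts the highest members were Rpl41 (3000 counts), Rpl10 (2544), Rps28 (2510), Rplp1 (2452) and Rps29 (2410). Rps21, Rps14, Rps12 and Rpl23 followed with 1851 to 1714. The 10 highest members together held 23.5% of all ribosomal protein counts, and Rpl41 and Rpl10 were counted in every kept well. Counts were not divided by transcript length, so this is an order of counts and not of messenger levels, and neighbours such as Rps21 and Rps14 differ by 2 counts. A total of 72 members had a count in over 90% of wells. The median well detected 75 members in the Sftpc class and 80 in each of the others. After every well was thinned to 2384 counts, the medians were 69, 68 and 69.

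Proteins of the ribosome that carry other names lay within the range of the members. Fau (Rps30 fused to a ubiquitin-like protein) and Rack1 had log2 ratios of -0.07 and 0.19 in Sftpc wells and -0.25 and 0.09 in Scgb3a1 wells on all counts. Of 6 elongation factors tested, Eef1d alone was past 1.5-fold higher in Sftpc wells, at 0.91 on all counts (0.21 to 1.61). Eef2, which moves the ribosome along, was -0.55 in Scgb3a1 wells on all counts and past 1.5-fold lower on the reduced scale at -0.74 (-0.98 to -0.49). Of 12 further pyrimidine-tract messengers, Hnrnpa1 alone was past it higher in Sftpc wells, at 1.07 (0.40 to 1.74). For both lists, 25% of all genes were past that fold higher. Pabpc1 was -0.48 in Sftpc wells on all counts and past 1.5-fold lower on the reduced scale at -0.66 (-0.97 to -0.37). In Scgb3a1 wells, where 15.3% of all genes were lower, Pabpc1, the poly(A)-binding protein, was lower at -0.88 (-1.14 to -0.63) and Eif4b at -1.10 (-1.70 to -0.52), 2 of the 12. Few ribosome assembly genes had enough counts: 2 of 14 were tested, and Nop10 was lower in Scgb3a1 wells at -0.85 (-1.67 to -0.06).

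Of 78 mitochondrial ribosome genes in the table, 5 were tested in the Sftpc comparison, with none past 1.5-fold, and 10 in the Scgb3a1 comparison, with Mrpl24 lower. Larp1 alone was tested of 10 translation control genes and was 0.02 in Sftpc and -0.10 in Scgb3a1 wells.

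Of 146 genes outside the family with at least 500 counts, Eef1a1, the main elongation factor, followed the summed ribosomal protein share most closely over the 227 wells on the reduced scale, with a Spearman rho of 0.58. Within the classes its rho was 0.36 in Sftpc, 0.57 in Scgb3a1 and 0.57 in other wells. Tpt1, another pyrimidine-tract messenger, had 0.46, Hp 0.43 and Wdr89 0.42. Gm15772 had 0.44, but its counts are those of the member Rpl26, so this is a member against its own sum. The lowest were Reg3g at -0.49, Bpifa1 at -0.47 and S100a6 at -0.46. Shares of 1 total constrain each other, and these values also contain the differences between classes. In Scgb3a1 wells the share had a rho of 0.58 with the Scgb1a1 share and -0.31 with the reduced total, whose part in the class differences was not tested.

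**Figure D4:**
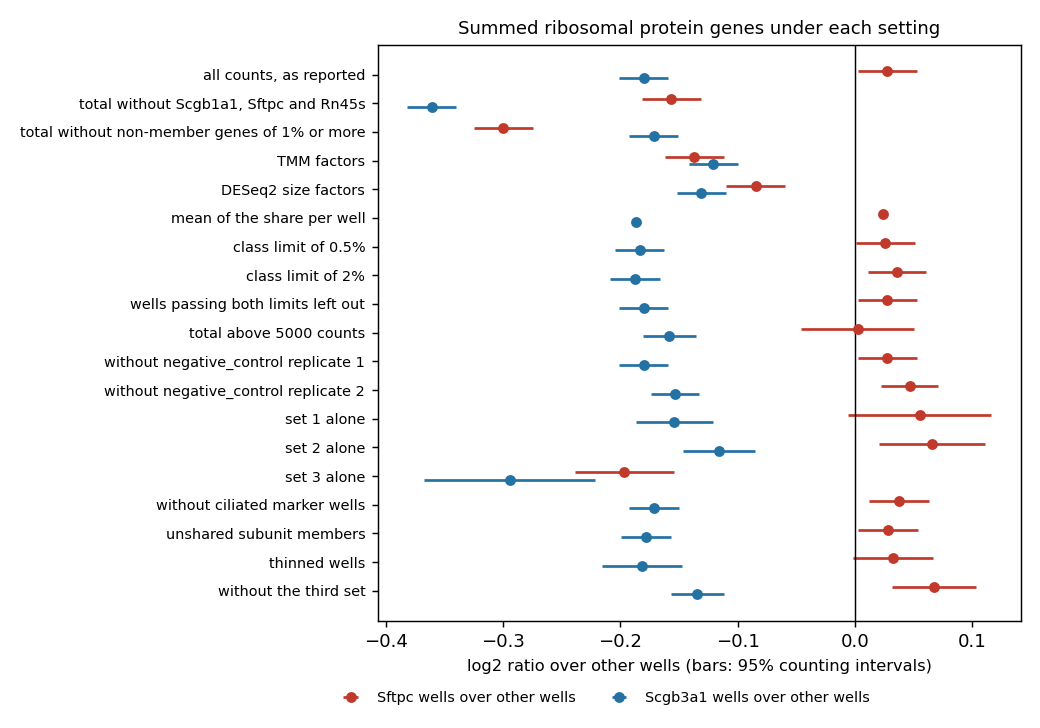
Log2 ratio of the summed ribosomal protein genes over other wells (horizontal axis) in Sftpc and Scgb3a1 wells under each way of scaling, filtering and grouping the wells (vertical axis), with 95% counting intervals where values were pooled. The Scgb3a1 values lie below 0 under all settings drawn, from -0.36 to -0.12, and the Sftpc values lie on both sides of 0, from -0.30 to 0.07.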

How the data were processed

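The unit is the raw count, as deposited: for each gene symbol and each of 288 wells the authors gave a whole number without normalization. Per the labels' protocols, RNA was fragmented, primed at the poly(A) tail with a barcoded primer and amplified after template switching. Per the submitters' processing notes, reads were aligned with STAR to mm10. The annotation, the counter and the collapsing of barcodes were not given in the sources used here. Columns were matched to samples by title. CPM was pooled, a class's counts of a gene against all its counts. Intervals are exact at 95%: Poisson for pooled shares in sorted wells, Clopper-Pearson for shares in the controls, and conditional binomial for ratios. A gene was tested with at least 50 counts over both classes and called past 1.5-fold. With 1 sample there is no test across animals. The members and gene lists were chosen with earlier results of these data known.

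Named genes were the 10 highest members, the 3 highest and 3 lowest in each comparison on the reduced scale, paralogues and members of known role, rows that share counts, and 5 correlated non-members; lowest correlates and genes past 1.5-fold were named after their values were seen. Doublets were not called. Copies were found with BLAST 2.17.0 and GENCODE M21. Other scalings used edgeR 4.0.16 (TMM) and DESeq2 1.42.0 (size factors) in R 4.3.3, and the rest Python 3.11.15, pandas 2.3.3 and scipy 1.17.1. The interval code was tested on simulated data. The alternatives tried are scaling, class limits, depth, sets, thinning, fold and count minimum. The planned protein identity between paralogues was not computed, since no protein sequences were used here. A few genes that the naming rule takes in are not reported here by name.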

Additional observations from a re-analysis of the deposited data

Results flagged for a closer look

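The 59 sorted wells left out for low totals still held ribosomal protein counts. These were 3539 counts, or 5.82% of all their counts, above the 0.427% in the second control, which was 1 count. Without Scgb1a1, Sftpc and Rn45s they were 9.28%, below the 11.3% of kept wells.

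The 7 names marked as pseudogenes and left out of the family held 1901 counts in kept wells, equal to 2.05% of the ribosomal protein counts. Rplp2-ps1 (483), Rpl34-ps1 (438) and Rps19-ps3 (402) had the most. Reads of parent genes and copies cannot be told apart by these counts.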

How the results depend on the processing

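No paired analysis was possible because control and cell numbers only name wells and no test was made across samples. The summed Scgb3a1 ratio was below 0 under each alternative run. Its log2 value moved from -0.18 to -0.361 without Scgb1a1, Sftpc and Rn45s, -0.121 with TMM factors, -0.131 with DESeq2 size factors, -0.158 in wells above 5000 counts, -0.154, -0.116 and -0.294 in sets 1, 2 and 3, and -0.134 without the third set (chosen after seeing the data). The summed Sftpc ratio moved from 0.03 to -0.157, -0.137, -0.0845, 0.00238 (8 Sftpc wells above 5000 counts), 0.0555, 0.0658, -0.197 and 0.0677 under the same settings in order, and to -0.300 without the 8 genes of 1% or more. Without those 8 genes the Scgb3a1 ratio was -0.171. Sftpc wells were then the lowest class, as they were with TMM factors, there with overlapping intervals. Leaving out each control gave -0.180 to -0.153 (Scgb3a1) and 0.03 to 0.05 (Sftpc), with 0 to 1 members lower in Sftpc wells.

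Members past 1.5-fold lower in Sftpc wells, 0 as reported, were 5 without the 3 genes, 9 without the 8 genes, 5 with TMM, 3 with DESeq2, 4 above 5000 counts, 3, 2 and 6 by set, and 1 without the third set, with a class limit of 2% or 0.5%, with no count minimum, with means per well and with thinned wells; at the lower fold limit they were 6. Members higher there, also 0, were 1 above 5000 counts, 5, 3 and 1 by set, 1 without the third set and at a limit of 2%, 3 with no minimum and 6 at the lower limit. In Scgb3a1 wells, 2 lower became 5 without the 3 genes and with no minimum, 1 in the second set and 15 in the third. They were 13 at the lower fold limit and 1 at 2-fold. They were also 1 without Rpl26, which shares counts, and without names that mark paralogues, copies or binding partners. Rpl22l1 was among the names left out there. Members higher in Scgb3a1 wells were 1 with no minimum. At the lower fold limit, 37.3% and 23.8% of all genes were higher and lower in Sftpc wells, and 26.8% lower in Scgb3a1 wells. Without the 3 genes, 21.4% of all genes were lower in Sftpc wells and 22.5% in Scgb3a1 wells. In Scgb3a1 wells 5.95% were lower at 2-fold. The share of all genes was not computed under the remaining settings, so those member counts cannot be set against a general rate. Of 1179 values of single members, 145 moved and 148 changed sign. The cause of these changes was not tested. Depth limits members with few counts, Rpl22l1 and Rps27l among them.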
